A study of Sus scrofa with 24 samples.

Results

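Smooth muscle and pericyte marker genes were followed in 24 pig fetuses at 63 dpc (days post conception), in a back muscle, the longissimus dorsi (LDM). The set was the 9 genes RGS5, ACTA2, MYH11, TAGLN, CNN1, PDGFRB, CSPG4, MCAM and DES, of which 7 were among the 13750 gene symbols in the platform annotation. Every probe set of these symbols was taken. A probe set is a group of array probes for the same transcript. Symbols of 7 members were found, with 12 probe sets. CNN1 and PDGFRB had no probe set of their symbol in the annotation used here and are named only.

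The fetuses were F2 animals of a cross based on German Landrace and Pietrain, and each had 1 Affymetrix Porcine Snowball array of total RNA from LDM. The study set fetuses of low weight, called IUGR for intrauterine growth restriction, against those of a weight appropriate for gestational age (AGA), and by its methods chose sibs at the extremes of fetal weight within litters of several dams by the same sire. The deposited labels say that high and low weight were compared but place no fetus in either group. In the study's animal list, fetuses 272, 283, 297, 307, 313, 324, 327, 340, 352, 363, 370 and 377 stand under AGA and fetuses 274, 281, 303, 311, 312, 320, 329, 338, 355, 360, 376 and 384 under IUGR. Groups were taken only from the labels, so this listing entered no mean or test, and neither did sex or dam. The listing is only set beside the values of the first principal component further below. All values below describe the 24 fetuses by number, and any difference of weight, sex or litter is part of their spread. The fetuses were related, so p-values, which treat them as independent, may be too small.

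Mural cells wrap the endothelial tube of blood vessels. Pericytes sit on capillaries, and vascular smooth muscle cells surround larger vessels with a contractile layer of actin, myosin and their associated proteins. Platelet-derived growth factor from the endothelium recruits them, and serum response factor (SRF) with its myocardin partners drives many of the contractile genes. Several of these markers are shared with other cells of fetal muscle. DES encodes the intermediate filament protein of muscle fibres as well, embryonic muscle fibres and their precursors use ACTA2 and TAGLN for a time, and MCAM is also made by endothelial cells. In whole tissue, fewer cells of a type and less RNA per cell cannot be told apart.

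A gene was kept when its log2 signal exceeded the array's median in at least 80% of arrays, 20 of 24, and the probe set with the highest median signal stood for it. All 7 members with a probe set passed, with 11 of their 12 probe sets, among 9710 genes in all. Precision is limited by the number of arrays. Array medians lay between 6.61 and 6.73, and fetuses 338 and 311 had the arrays least like the rest (median correlation with the others 0.946 and 0.961, against up to 0.980). Background control probe sets, which match no transcript, had median signals between 1.77 (probes with 4 G or C bases) and 9.71 (24 such bases). The medians of ACTA2, TAGLN, MCAM and DES lay above the brightest of these controls, whereas those of RGS5, CSPG4 and MYH11 did not and can hold more unspecific signal.

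RGS5, which encodes a regulator that shortens signalling by G proteins and is widely used as a pericyte marker, spread the most of the 7 members. Its log2 signal was lowest in fetus 313 at 8.55, had a median of 9.16 and was highest in fetus 320 at 9.67, a range of 2.17-fold. Fetuses 313, 283 and 281 were the lowest and fetuses 320, 338 and 311 the highest, with values between them in an unbroken series. As a measure of spread, the span is the 90th minus the 10th percentile of the fetuses. The RGS5 span was 0.73 on the log2 scale, or 1.66-fold, and 9.38% of the 9710 genes had a span at least as wide. The other RGS5 probe set that passed ran from 6.88 in fetus 272 over a median of 7.83 to 8.40 in fetus 338. It had a span of 1.04 (2.06-fold), which 1.51% of genes reached, and followed the brighter probe set over fetuses with r = 0.86. The remaining RGS5 probe set ran from 3.70 to 4.55, was above the array median in 0 of 24 arrays and had correlations of 0.18 and 0.04 with the other two.

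CSPG4 and MCAM are surface markers of pericytes. CSPG4 encodes the proteoglycan NG2, a coreceptor on the pericyte membrane. Its log2 signal was lowest in fetus 338 at 8.41, had a median of 8.74 and was highest in fetus 313 at 9.13, a range of 1.64-fold. Fetuses 338, 320 and 384 were low and fetuses 313, 272 and 297 high, so that fetuses 338 and 320 stood at the low end for CSPG4 and the high end for RGS5, and fetus 313 the reverse. The span was 0.52, and the other CSPG4 probe set had a span of 0.36 from 8.21 in fetus 338 to 8.84 in fetus 340 (r = 0.59 between the probe sets). MCAM encodes the adhesion molecule CD146. Its log2 signal ran from 9.31 in fetus 274 over a median of 9.74 to 9.92 in fetus 272, with a span of 0.36. Fetus 274 stood apart at the low end from the next fetus, 320 at 9.45, whereas the highest fetuses 272, 297 and 324 lay close together.

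The contractile genes differed from each other in spread, with ACTA2 narrow and TAGLN close to CSPG4. ACTA2, the smooth muscle alpha-actin gene, had a log2 signal of 12.97 in fetus 274, a median of 13.13 and a highest value of 13.37 in fetus 324. Fetuses 274, 312 and 320 were low, fetuses 324, 327 and 313 were high, and the whole range was 1.32-fold. Its span of 0.28 was narrow, since 90.8% of genes had a span at least as wide. The other ACTA2 probe set had a span of 0.22 from 12.37 in fetus 274 to 12.86 in fetus 327 (r = 0.78 between them). Whether the probe sets separate ACTA2 from the other, closely similar muscle actins was not tested. MYH11 encodes the smooth muscle myosin heavy chain and was measured by 1 probe set, from 6.78 in fetus 338 over a median of 7.02 to 7.31 in fetus 324, with a span of 0.40. TAGLN encodes the actin-binding protein transgelin and had 1 probe set, from 9.56 in fetus 355 over a median of 10.01 to 10.39 in fetus 340, with a span of 0.51 and a range of 1.78-fold. Fetus 324 was highest for ACTA2 and MYH11 but below the median for TAGLN, and fetus 338, lowest for MYH11, was near the middle for TAGLN and ACTA2.

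DES, the desmin gene, was as even as ACTA2. Its log2 signal was 12.48 in fetus 320, had a median of 12.62 and reached 12.85 in fetus 324, with a span of 0.28 that 90.7% of genes equalled or passed. Fetuses 320, 274 and 329 were low and fetuses 324, 307 and 297 high. The other DES probe set ran from 8.65 in fetus 274 to 9.09 in fetus 307 with a span of 0.24, and its r with the brighter one was 0.67.

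**Figure D1:**
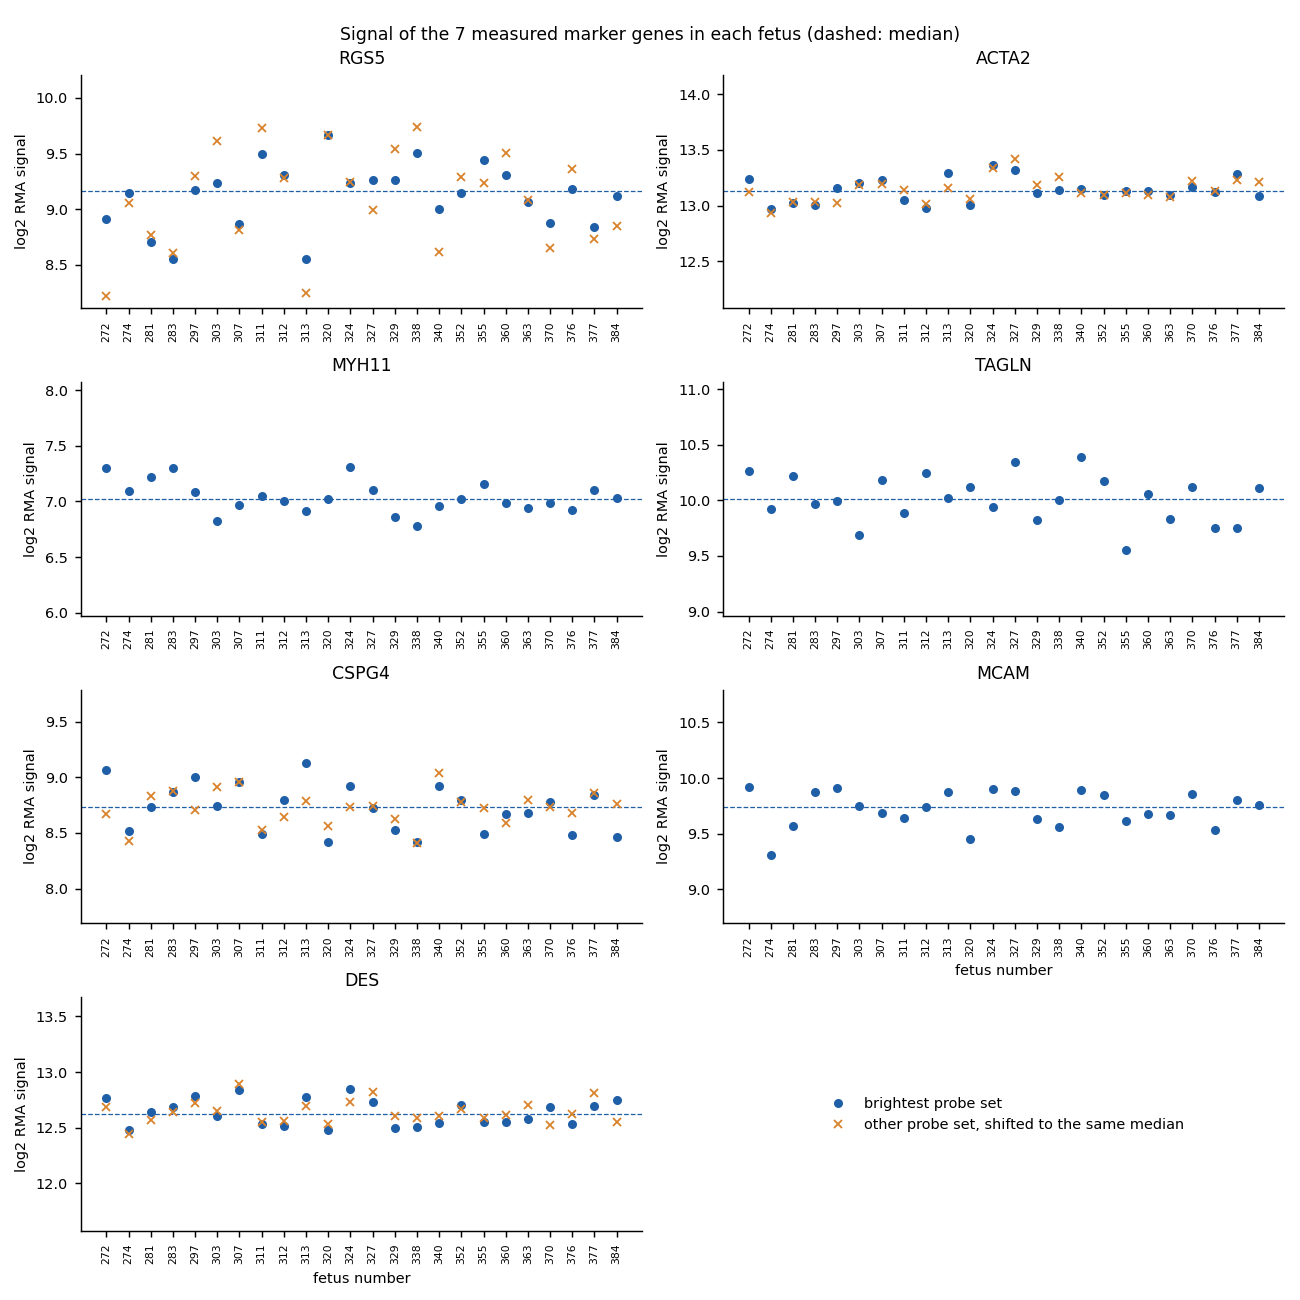
Log2 RMA signal (vertical axis, the same height of 2 log2 units in each panel) of the 7 measured marker genes in each of the 24 fetuses (horizontal axis, fetus numbers). Dots are the probe set of highest median, crosses the other probe set that passed, shifted to the same median, and the dashed line is the median. RGS5 covers 8.55 to 9.67, whereas ACTA2 and DES stay within 0.40 and 0.37 log2 units.

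The marker genes as a group did not vary more than other genes. The median span over the 7 members was 0.40, against 0.42 over all genes, and 3 of 7 members (RGS5, CSPG4 and TAGLN) lay above the median gene. A span of at least 1, or 2-fold, was reached by 216 genes (2.22%) and by no member through the probe set used, while the dimmer RGS5 probe set passed it.

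Whether the markers rose and fell together was asked for each of the 21 pairs. All fetuses were pooled, so a difference between the weight groups can enter each r and its p-values. Its part was not tested. Every gene was fitted on the log2 signal of each member in turn (limma, Benjamini-Hochberg adjustment over the 9709 other genes), and a pair was called when the adjusted p was under 0.05 in both directions of fit. With the probe set that stood for each gene, CSPG4, MCAM and DES moved together and RGS5 moved against CSPG4 and DES. That made 5 of 21 pairs, of which 3 had a positive and 2 a negative correlation. Correlations were positive in 15 of the 21 pairs, and the 13 pairs called in neither fit had r between -0.43 and 0.44.

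The closest pair among the members was CSPG4 with MCAM (r = 0.76, Spearman's rho = 0.79). Its adjusted p-values in the 2 fits were 0.000208 and 0.000863, the permutation p of r over 100000 permutations was 2e-05 and that of rho 1e-05, the smallest these permutations can give, and r was 0.74 once the 2 fetuses farthest from the CSPG4 median were left out. DES followed CSPG4 (r = 0.72, rho = 0.71, adjusted p = 0.00212 and 0.000644, permutation p = 7e-05 for each, r = 0.67 without the 2 farthest fetuses). DES also followed MCAM (r = 0.71, rho = 0.76, adjusted p = 0.00632 and 0.00141, permutation p = 9e-05 and 6e-05, r = 0.66 without 2 fetuses). In each of these pairs fetuses 320 and 274 lay toward the low corner and fetuses 324, 297 and 272 toward the high corner. With the other probe sets of CSPG4 and DES, CSPG4 with MCAM kept its call (r = 0.58, larger adjusted p = 0.0186). CSPG4 with DES and MCAM with DES then lost theirs (r = 0.52 for each, larger adjusted p = 0.079 and 0.0746). The r between probe sets of the same gene, 0.59 for CSPG4 and 0.67 for DES, was below that of these pairs as reported.

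RGS5 fell as CSPG4 rose (r = -0.68, rho = -0.65, adjusted p = 0.000927 and 0.000403, permutation p = 0.00025 and 0.00076, r = -0.62 without the 2 fetuses farthest from the RGS5 median). With the other probe sets of both genes r was -0.53. RGS5 was also inverse to DES (r = -0.54, rho = -0.58, adjusted p = 0.0334 and 0.0107, permutation p = 0.00587 and 0.00381, r = -0.51 without 2 fetuses). This last call was lost when fetus 307, 311, 313, 320 or 338 was left out, the larger adjusted p then lying between 0.017 and 0.0745 over all 24 omissions, and with the other probe sets of RGS5 and DES r was -0.26 (adjusted p = 0.366). RGS5 with MCAM, at r = -0.43, did not pass (adjusted p = 0.0653 and 0.0568). It did pass with the mean of probe sets (r = -0.49, larger adjusted p = 0.0274) and with the other RGS5 probe set (r = -0.50, larger adjusted p = 0.0296). When single fetuses were left out, it passed in 4 of 24 cases.

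ACTA2 leaned toward the same genes. Its r was 0.66 with DES, 0.60 with MCAM and 0.52 with CSPG4, and these 3 pairs passed in 1 of the 2 fits only (larger adjusted p = 0.0738, 0.0769 and 0.0987, smaller 0.00984, 0.0298 and 0.0428). They passed in both when each array was first centred on its median (larger adjusted p = 0.0226, 0.0266 and 0.0346). With the other probe sets r was 0.51 with DES, 0.39 with MCAM and 0.15 with CSPG4 (larger adjusted p = 0.578, 0.675 and 0.975). With the mean of probe sets r was 0.67, 0.52 and 0.32 (larger adjusted p = 0.182, 0.252 and 0.526). MYH11 and TAGLN were called with no other member. Their 11 pairs had r between -0.29 and 0.44 with adjusted p-values from 0.0828 to 0.989. The highest r was that of MYH11 with DES (permutation p = 0.0331 for r and 0.0781 for rho). With ACTA2, the third contractile gene, MYH11 had r = 0.07 and TAGLN r = 0.01.

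**Figure D2:**
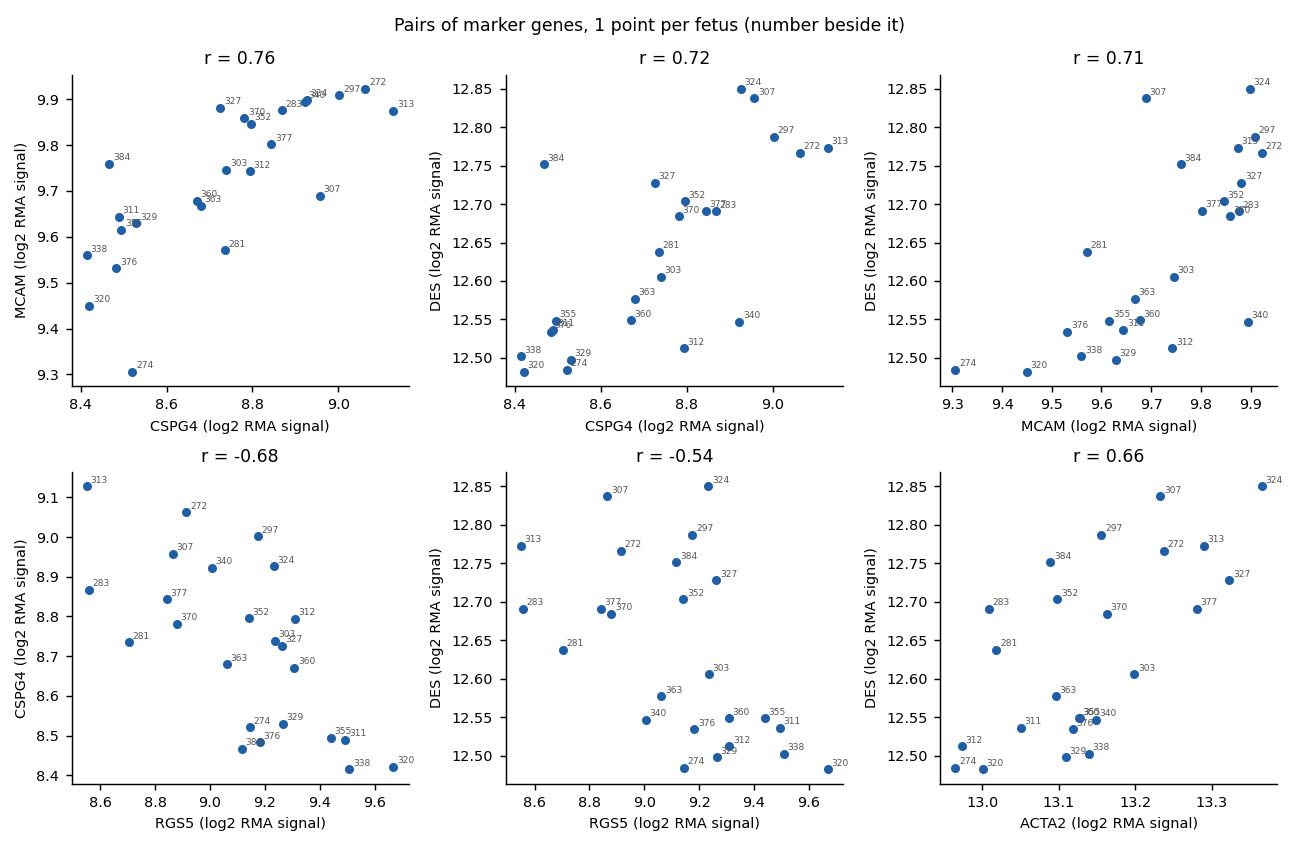
Log2 RMA signals of 6 pairs of marker genes, 1 point per fetus with its number, with Pearson's r above each panel. CSPG4, MCAM and DES rise together (r = 0.76, 0.72 and 0.71), RGS5 falls with CSPG4 and DES (r = -0.68 and -0.54), and ACTA2 rises with DES (r = 0.66).

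These counts stand against a tissue in which many genes are correlated. In the fit on RGS5, 2 of 6 other members (33.3%) were called and 46.4% of all genes tested. In the fit on CSPG4 it was 4 of 6 (66.7%) and 49.5%, on MCAM 3 of 6 (50%) and 34.6%, and on DES 4 of 6 (66.7%) and 41% of all genes. With 6 genes each, these shares are near the background, and nothing particular to the marker set can be read from them. In the fit on ACTA2, 0.793% of genes were called (0.69% positive, 0.103% negative; 7.33% and 0.402% with each array centred on its median), on MYH11 0.0103% and on TAGLN 0%, with 0 of 6 members each. At an unadjusted p under 0.05 these fits held 2380, 2084 and 1000 of 9709 genes, and with ranks in place of log2 values 0 genes were called for each of the 3.

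Signal of the background controls moved with some of the markers. The mean of the 39 background controls with 13 or more G or C bases correlated with RGS5 at r = -0.73 (rho = -0.75, adjusted p = 0.000254, permutation p = 6e-05 and 5e-05). It correlated with CSPG4 at r = 0.55 (rho = 0.45, adjusted p = 0.0132, permutation p = 0.00542 and 0.0286) and with MCAM at r = 0.50 (rho = 0.49, adjusted p = 0.0337, permutation p = 0.013 and 0.0151). Leaving out the 2 fetuses farthest from each marker's median gave r = -0.60, 0.38 and 0.46. These 3 of 7 members passed, beside 43.6% of all genes (20.8% positive, 22.7% negative). DES at r = 0.43 (adjusted p = 0.1), MYH11 at 0.25 (0.327), ACTA2 at 0.19 (0.509) and TAGLN at 0.18 (0.451) did not. Without fetuses 338 and 311, whose arrays resembled the others least, only RGS5 remained called. The part of unspecific signal in the relations between members was not tested beyond 1 fit with the control signal as a covariate. There, CSPG4, MCAM and DES remained called with each other (r = 0.68, 0.64 and 0.63) and RGS5 was no longer called with CSPG4 (r = -0.49, adjusted p = 0.0655) or DES (r = -0.37, adjusted p = 0.245).

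The same markers lay along the main axis on which the fetuses differed. The first principal component of the gene-centred values held 39.7% of the variance of all genes and correlated with the control signal at r = 0.77. Its r was -0.85 with RGS5 and -0.87 with the other RGS5 probe set, 0.86 with CSPG4, 0.74 with DES and 0.69 with MCAM, but only 0.45 with MYH11, 0.44 with ACTA2 and 0.33 with TAGLN. The members are among the genes that form this component, so these values are descriptions. By the study's animal list, the component was positive in every AGA fetus except 363 (-0.03), with its highest value in fetus 313 (0.33). It was negative in every IUGR fetus except 281 (0.13), with its lowest value in fetus 338 (-0.43). The AGA and IUGR fetuses thus lay largely on opposite sides of this axis, and the marker correlations pool both. Whether weight group, sex or litter lay along this axis was not tested, since the labels give none of them. With the component as a covariate, 0 of 21 pairs was called. The partial r then stayed positive for CSPG4 with MCAM (0.46), CSPG4 with DES (0.23), MCAM with DES (0.41) and ACTA2 with DES (0.56). RGS5 turned from a negative to a positive partial r with CSPG4 (0.21), DES (0.26) and MCAM (0.40), none of which passed the test.

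**Figure D3:**
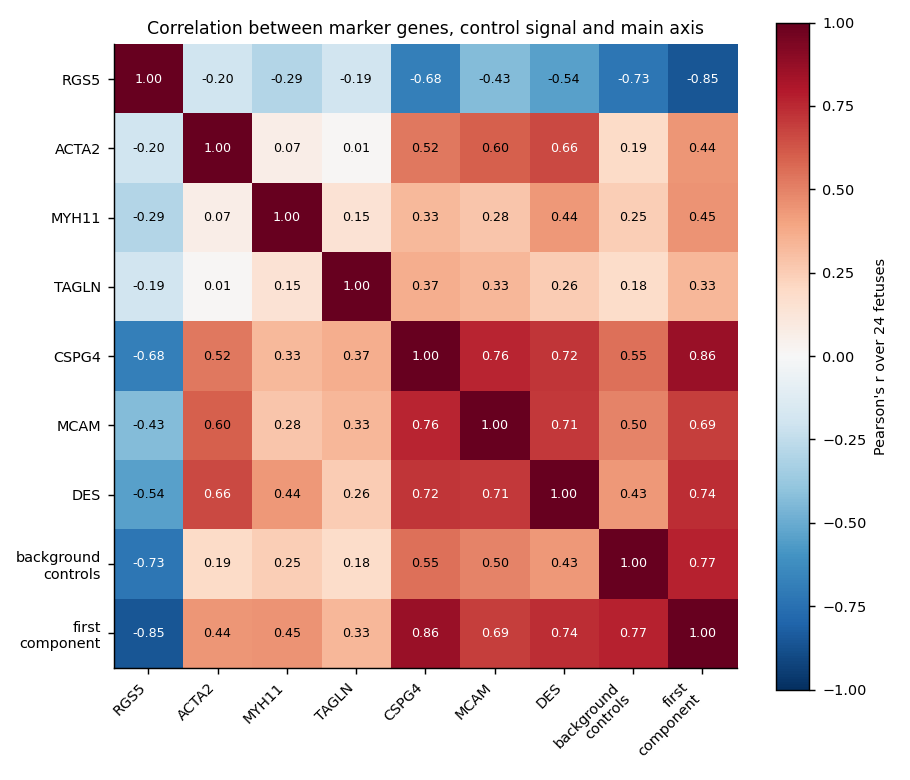
Pearson's r over the 24 fetuses between the 7 measured marker genes, the mean of 39 background control probe sets and the first principal component (blue negative, red positive, value in each cell). RGS5 is negative with each other marker (-0.19 to -0.68), CSPG4, MCAM and DES form a positive block (0.71 to 0.76), and MYH11 and TAGLN stay under 0.45 with each marker.

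**Figure D4:**
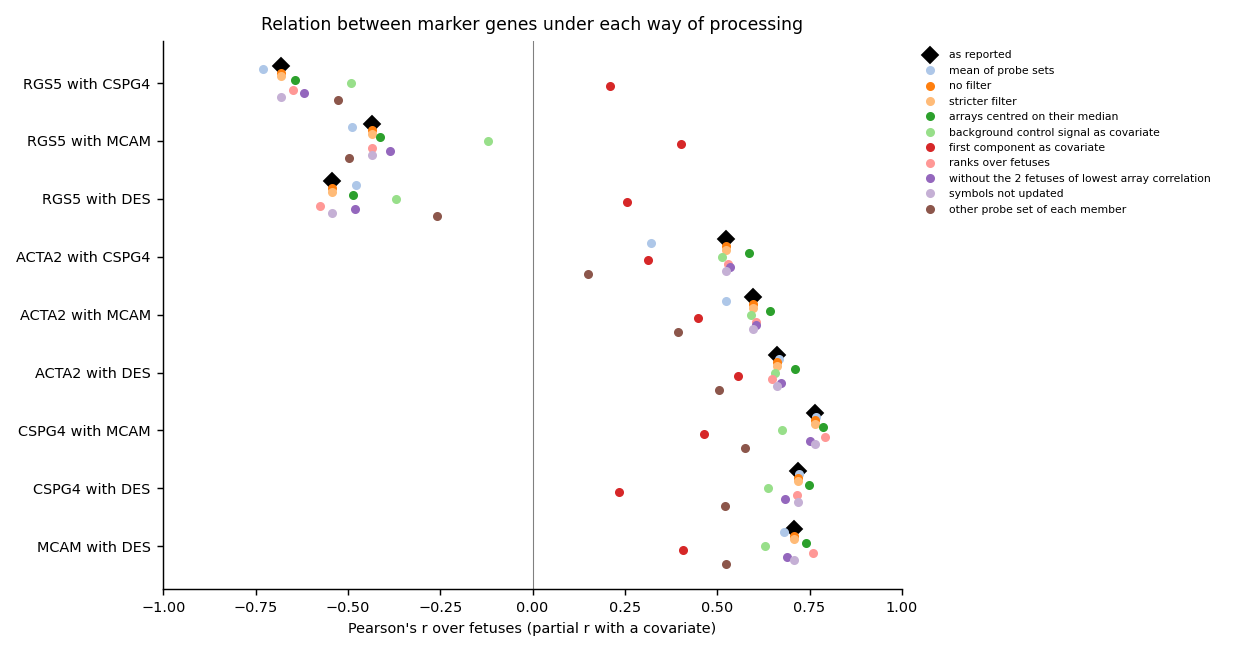
Pearson's r (horizontal axis) of 9 pairs of marker genes as reported (black diamonds) and under each other way of processing (coloured dots; a partial r where a covariate was used). The 3 pairs with RGS5 lie below 0 except with the first component as a covariate (0.21, 0.40 and 0.26), and the 6 pairs among ACTA2, CSPG4, MCAM and DES stay above 0 throughout.

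Further genes of the same biology were taken in 8 lists, 71 of whose 84 genes passed the filter. Counts give the genes called in the fit on a member, where a gene with a positive r rose with the member and a gene with a negative r fell as it rose, and are to be read beside the share of all genes called, which was 20.5% positive and 25.9% negative for RGS5, 30.2% and 19.3% for CSPG4, 21.3% and 13.2% for MCAM, and 26.1% and 14.8% for DES. For MYH11 and TAGLN, 0 genes of any list were called. For ACTA2 only CRYAB was, but with each array centred on its median 8 list genes were called with it, all positive (3 sarcomere, 2 contractile and 2 endothelial genes and 1 desmin partner).

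Among 12 other genes of the smooth muscle contractile apparatus, 7 rose with DES, 6 with MCAM and 4 with CSPG4, and 1, CALD1, fell with all 3. With RGS5, 2 rose and 4 fell. MYL9, the regulatory myosin light chain of smooth muscle and non-muscle cells, had r = 0.86 with MCAM, 0.78 with CSPG4 and 0.75 with DES. CALD1, which encodes the actin-binding caldesmon, ran the other way, with r = 0.80 for RGS5 and -0.78 for CSPG4. The filamin gene FLNA and the smoothelin gene SMTN fell with RGS5 (r = -0.65 and -0.61) and rose with CSPG4 (0.65 and 0.77), while MYLK, which encodes myosin light chain kinase, was called with no member (r between -0.18 and -0.06 for RGS5, ACTA2, CSPG4, MCAM and DES). SRF was the only measured gene of 4 of its list, and it fell with RGS5 (r = -0.54) and rose with CSPG4 (0.61), MCAM (0.50) and DES (0.48).

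Other mural cell and platelet-derived growth factor genes split in 2 directions. Of 10 measured, 5 rose and 3 fell with RGS5, and 3 rose and 5 fell with CSPG4. The potassium channel subunit gene ABCC9, a pericyte marker of mouse tissues, rose with RGS5 (r = 0.75), as did TBX18 (0.63), a mural cell transcription factor, the vessel-destabilizing ligand ANGPT2 (0.62), the receptor PDGFRA (0.61) and the ligand PDGFD (0.59). All 5 fell with CSPG4 (r between -0.76 and -0.43). HEYL, a Notch target in mural cells, fell with RGS5 (-0.71) and rose with CSPG4 (0.88), DES (0.78) and MCAM (0.66). The ligand PDGFA did likewise (-0.61 with RGS5 and 0.83 with DES). ANPEP also fell with RGS5 (-0.53), whereas KCNJ8 (-0.25) and PDGFC (0.09) were not called with it. All 8 genes of the list that were called with RGS5 were also called with CSPG4, each with the opposite sign. RGS5 and CSPG4 were themselves inverse (r = -0.68), and the share of all genes with such opposite calls was not counted. Nothing particular to mural cell genes can therefore be read from these signs.

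Endothelial genes were called more often with CSPG4, MCAM and DES than against them. Of 12 measured, 9 rose with DES, 8 with CSPG4 and 6 with MCAM, and only EMCN fell, with CSPG4. CLDN5, a tight junction gene, had r = 0.84 with CSPG4, and the junction gene ESAM had r = 0.79 with DES. With RGS5, 6 fell and 2 rose. The endothelial receptor gene TIE1 was inverse to RGS5 at r = -0.85, and the sialomucin gene EMCN rose with it (0.75). Endothelial genes therefore did not take 1 direction with RGS5, and the part of vessel content in these relations was not tested.

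Genes of muscle fibres moved with DES and MCAM too. Of 12 measured sarcomere genes, 7 rose and 1 fell with DES, 6 rose and 1 fell with MCAM, and 5 rose and 2 fell with CSPG4. The slow troponin gene TNNC1 had r = 0.81 with DES and the skeletal actin gene ACTA1 r = 0.76 with MCAM. RGS5 rose with MYBPC1 (r = 0.87) and TTN (0.84), which encode a myosin-binding protein and titin, and fell with the fast myosin gene MYH2 (-0.58) and with TNNC1 (-0.48). Of the 8 desmin partners, 2 rose with each of CSPG4, MCAM and DES, namely the small heat shock gene CRYAB and the lamin gene LMNA, and 2 fell, namely the synemin gene SYNM and the dystrophin gene DMD. CRYAB, a chaperone of desmin filaments, had r = 0.81 with DES and 0.74 with ACTA2 (adjusted p = 0.0364). RGS5, itself inverse to CSPG4 and DES, took the opposite sign with all 4 of these partners. Its r ran from 0.78 with SYNM and 0.76 with DMD to -0.66 with LMNA and -0.47 with CRYAB.

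Fibroblast and matrix genes were called in both directions. Of 10 measured, 3 rose and 2 fell with RGS5, 2 rose and 3 fell with CSPG4, 1 rose and 3 fell with DES, and 0 rose and 2 fell with MCAM. POSTN, which encodes periostin, rose with RGS5 (r = 0.69) and fell with DES (-0.73), and the proteoglycan gene LUM rose with RGS5 (0.75), whereas the collagen genes COL1A1, COL1A2 and COL3A1 were called with no member. Of 6 other RGS genes, none rose and 3 fell with RGS5 (RGS12 at r = -0.74, RGS2 at -0.62 and RGS3 at -0.47), and 4 rose with CSPG4, led by RGS12 (0.81).

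**Figure D5:**
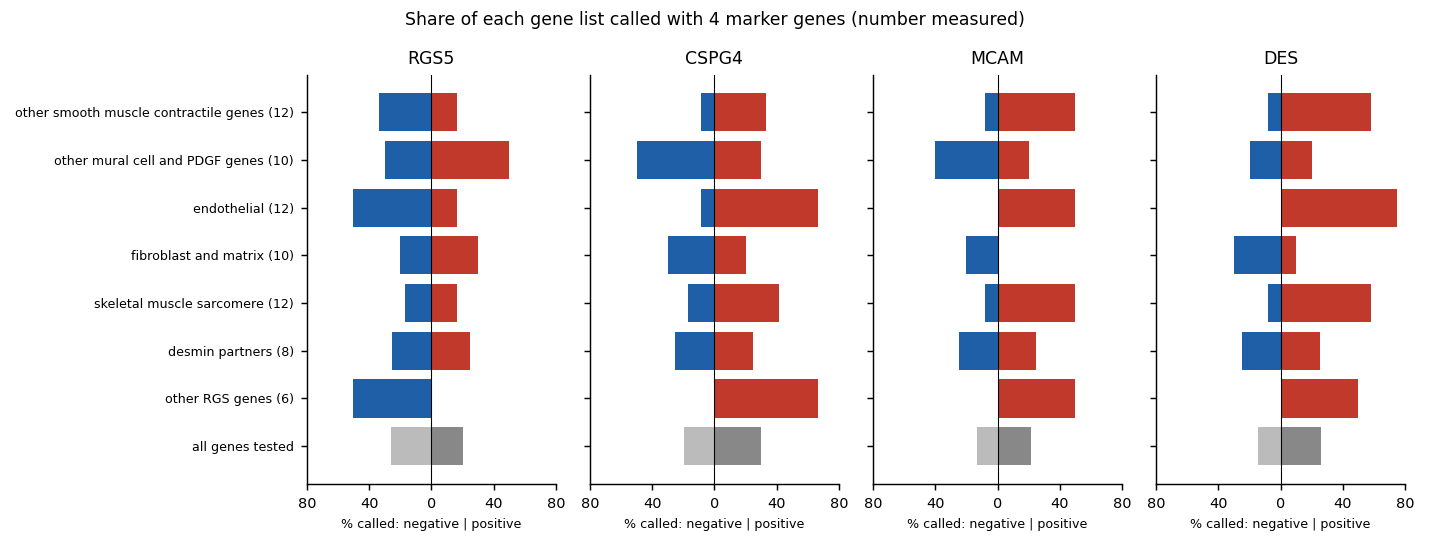
Percent of the measured genes of each of 7 lists (rows, number measured in parentheses; the list with 1 measured gene is left out) called with RGS5, CSPG4, MCAM and DES, negative to the left and positive to the right of 0. Grey bars are all genes tested. Endothelial genes are mostly positive with CSPG4, MCAM and DES (8, 6 and 9 of 12), and mural cell genes divide in both directions.

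With the control signal as a covariate, most list counts fell, though not all. With MCAM, positive calls went from 6 to 1 among contractile genes, from 6 to 2 among endothelial genes and from 6 to 2 among sarcomere genes, where all genes gave 10% positive and 1.72% negative. Desmin partners called with CSPG4 and with DES stayed at 2 positive and 2 negative, other RGS genes called with CSPG4 stayed at 4, and contractile genes that fell with CSPG4 went from 1 to 2. Mural cell genes called with RGS5 were then 0 positive and 1 negative of 10, and endothelial genes called with DES 4 of 12 and with CSPG4 6 of 12, where all genes gave 7.6% positive and 8.07% negative for RGS5, 19.5% and 7.66% for DES and 23.1% and 12.4% for CSPG4. With each array centred on its median, positive calls became more frequent. They made up 74% of all genes called for MCAM instead of 61.7% and 76.6% instead of 63.8% for DES, and mural cell genes called with CSPG4 became 4 positive and 3 negative, and with MCAM 3 positive and 1 negative instead of 2 and 4.

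For each marker, the genes outside the marker set with the most similar pattern over the 24 fetuses were taken by Pearson's r. The markers themselves were left out of this ranking. Those closest to RGS5 were the adducin gene ADD3, PDCD6IP and TDRD3, each at r = 0.90. CSPG4 was closest to the fatty acid transporter gene SLC27A4 (0.93), TMEM189 (0.92) and the ribosome assembly gene PES1 (0.91). MCAM was closest to MAGED1 (0.88), MYL9 (0.86) and EHD4 (0.86). For DES they were the muscle filamin gene FLNC (0.91), USP10 (0.90) and SYNPO2L (0.90), a gene of the striated muscle Z-disc. For ACTA2 they were the cadherin gene CDH13 (0.80, adjusted p = 0.0334), the embryonic myosin light chain gene MYL4 (0.79, adjusted p = 0.032) and FBXL22 (0.79, adjusted p = 0.0364). For MYH11 they were DHRS7C (0.82, adjusted p = 0.00225), TNFAIP1 (0.73) and AFF1 (0.69), of which the last 2 did not pass (adjusted p = 0.178 each). DHRS7C encodes a dehydrogenase of the muscle sarcoplasmic reticulum and was the only gene called with MYH11, a call that ranks did not give (adjusted p = 0.518). TAGLN was closest to RASL12 (0.67), CLTC (0.66) and LEPROT (0.65), none of which passed (adjusted p = 0.479 each).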

How the data were processed

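Arrays were of the Affymetrix Porcine Snowball type, 1 for the LDM RNA of each of 24 fetuses. The authors ran Expression Console to normalize them by RMA (robust multichip average), and the deposited values are log2 signals per probe set. GCOS 1.1.1 stands in the submitters' processing notes. RMA equalizes the probe signal distributions of the arrays, which removes differences in overall brightness. The authors' detection calls are not used here, and no genome build was taken for the array design. No batch is given by the labels.

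The table held 47845 probe sets (123 controls), of which 26426 had 1 gene symbol and 21296 others none. Of these symbols, 325 were updated through RefSeq synonyms. The filter left 21902 probe sets. Fits used limma 3.58.1 (R 4.3.3) with lmFit and eBayes, and permutations Python 3.11.15 with numpy 2.4.6 and scipy 1.17.1 (2-sided). Fits were tested on simulated data with independent noise for each gene and fetus. Here many genes were correlated and the fetuses related, so that test does not vouch for the calls made here. Besides the members and the list genes, the 3 genes outside the members with the highest r with each member were named. Members and lists were chosen with earlier results of these data known. Alternatives changed the probe set, filter, centring, scale, covariates, symbols or fetuses. The variance analysis of weight group, sex and dam in the study's methods was not run, since the labels give none of these.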

Additional observations from a re-analysis of the deposited data

How the results depend on the processing

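The 5 called pairs became 3 with the background control signal as a covariate, 0 with the first component as a covariate and 3 with the other probe set of RGS5, ACTA2, CSPG4 and DES, and lay between 4 and 8 when each fetus was left out in turn (8 without fetus 283). The other probe set and the omission of each fetus were chosen after the data were seen. With the first component as a covariate, r turned to 0.21 for RGS5 with CSPG4, 0.40 for RGS5 with MCAM and 0.26 for RGS5 with DES (adjusted p = 0.999 each), and the cause was not tested. With the other probe sets, CSPG4 with DES (r = 0.52, adjusted p = 0.079) and MCAM with DES (r = 0.52, adjusted p = 0.0746) lost their call, RGS5 with DES did too, and RGS5 with MCAM gained one (r = -0.50, adjusted p = 0.0296). Centred arrays gave 7 pairs, and the mean of probe sets 5, in both of which RGS5 with DES was lost (adjusted p = 0.0545 and 0.0639). With the mean of probe sets RGS5 with MCAM gained a call (r = -0.49, adjusted p = 0.0274). The 3 members called with the control signal became 1 without fetuses 338 and 311, and ranged from 1 (without fetus 313) to 3 when each fetus was left out. CSPG4 lost that call without fetus 313, and MCAM without fetus 272, 283, 313, 320, 338 or 340. The median span lay between 0.36 and 0.41 over these omissions, and the RGS5 span was 1.04 with its other probe set. CSPG4 with MCAM kept its call under each setting run except the first component as a covariate (r = 0.46, adjusted p = 0.402). The calls of CDH13, MYL4 and FBXL22 with ACTA2 were lost with ranks (adjusted p = 0.0854 each), with the other probe set and with the first component as a covariate, those of MYL4 and FBXL22 also with the mean of probe sets, and that of FBXL22 with no filter (adjusted p = 0.0543). Leaving out single fetuses lost them in 9, 8 and 10 of 24 cases, with adjusted p-values up to 0.0962, 0.094 and 0.094 (without fetus 272, 274, 307, 311, 312, 320, 324 or 377 for each of the 3, also 327 for CDH13 and FBXL22, and 313 for FBXL22). Over all genes, the 77 calls with ACTA2 became 751 with centred arrays and 0 with ranks, and with the control signal as a covariate calls went from 4504 to 1522 for RGS5, from 3356 to 1140 for MCAM and from 3976 to 2639 for DES. No paired analysis was run. The deposited labels, the only source of groups for means and tests here, give no weight group, dam or shared replicate number. The study's animal list was not used for pairing. The number of arrays and unspecific signal of dim probe sets limit these values.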

Other observations

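With the first component as a covariate, 31 of 9709 genes (0.319%) were called with DES, 30 of them positive and 1 negative, while 1 gene was called with MYH11, 1 with CSPG4 and none with RGS5, ACTA2, MCAM or TAGLN. Of the 31 genes, 22 were also called with DES without the covariate, with the same sign, and 9 were not. The genes named here were chosen after their values were seen. Those with DES included SYNPO2L and FLNC of the striated muscle Z-disc (partial r = 0.80, adjusted p = 0.0193, and 0.78, adjusted p = 0.0433), the muscle phosphoglycerate mutase gene PGAM2 (0.73, adjusted p = 0.0433) and USP10 (0.82, adjusted p = 0.0193). DNAL1 had the highest partial r with DES (0.84, adjusted p = 0.0069), although its r without the covariate was -0.23. DHRS7C stayed the only gene called with MYH11 (partial r = 0.77, adjusted p = 0.031), and PKP3, a desmosomal plakophilin gene, was the only one called with CSPG4 (partial r = -0.85, adjusted p = 0.00683, and r = -0.35 without the covariate).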
